A study of Homo sapiens with 82 samples.

Results

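The MYC, MAX and MXD network was followed here through 7 genes, MYC, MAX, MXD1, MXD3, MXD4, MXI1 and MNT, chosen by gene symbol from tables of 51838 genes. Each symbol had 1 row, and the 7 genes passed the filter on low counts at both time points. RNA-seq libraries came from HT29, a human colorectal adenocarcinoma cell line, and 32 of the 82 samples of the series were used. Cells had been kept in phenol-red free medium with charcoal-stripped serum and then received DMSO, the solvent control, or 10 μM of GW3965, T0901317 or rosiglitazone for 24 or 48 h, with 4 libraries in each of the 8 groups and a DMSO group at each time. GW3965 and T0901317 are agonists of the liver X receptors (LXRs), which sense oxysterols, and rosiglitazone is an agonist of PPARG, a receptor of fatty acid metabolism. The groups differed in drug and time only, as far as the labels tell, and each drug was given at a single dose in a single cell line. The study's methods give treatments in quadruplicate, and neither they nor the labels say whether the 4 libraries of a group came from separate cultures, so p-values measure the spread between these libraries, which may be technical.

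MYC is a transcription factor that binds DNA as a dimer with MAX at E-boxes, with the core letters CACGTG, and activates genes of ribosome production, nucleotide synthesis and cell growth. MXD1, MXD3, MXD4 and MXI1 are the MXD proteins, which also need MAX to bind DNA, occupy the same E-boxes and recruit the SIN3 and HDAC corepressor complex. MNT is a related MAX partner, expressed in most cell types, that likewise represses MYC target genes. In the intestine MYC is a target of Wnt signalling and marks the proliferating cells of the crypt, and MXD genes are known for their expression in cells that leave the cycle and differentiate.

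Because the proteins of the network act at E-boxes, the promoters of the members were searched for CACGTG, which reads the same on both strands. RefSeq windows of 300 bases, from 250 before to 50 after an annotated start site (GRCh38.p14), were found for 6 of the 7 members, 9 windows in all, and MYC had no entry. CACGTG was in 2 of the 9 windows, those of MXD4 and MNT, compared with 7.26% of all 35116 windows. The stretches with the E-box are shown for these members, with CACGTG in capitals. They run from 250 to 151 bases before the start site, 5′ to 3′ on the minus strand, at chr4:2262260-2262359 for MXD4 and chr17:2401211-2401310 for MNT.
MXD4: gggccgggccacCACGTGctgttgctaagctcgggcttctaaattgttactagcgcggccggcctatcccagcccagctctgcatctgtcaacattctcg
MNT: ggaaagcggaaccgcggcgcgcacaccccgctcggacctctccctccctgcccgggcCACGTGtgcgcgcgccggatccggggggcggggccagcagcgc
The E-box began 238 bases before the start site in MXD4 and 193 bases before it in MNT. AP1, another factor family, has the motif TGANTCA, which was in the MXD3 window and in 7.71% of all windows. The DR4 repeat bound by LXRs and the DR1 repeat bound by PPARG, both sought as perfect matches on either strand, were in 0 of the 9 windows and in 0.0199% and 0.0228% of all windows. These matches are letters in a window and were not tested for binding.

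Total counts ranged from 21044798 to 51332656 per library, and the lowest count of any member in any library was 383. Levels are given as CPM, the count of a gene scaled to a common library total, with TMM factors that remove differences in library composition. Differences are log2 fold changes from edgeR's quasi-likelihood test with their SE, and a gene was called when its Benjamini-Hochberg adjusted p, over all genes tested, was under 0.01. CPM is not divided by gene length, so levels were compared between groups and not between genes. The 8 epithelial markers were detected in every library, from KRT8 at 7108 to 11090 CPM down to the intestinal factor CDX2 at 6.46 to 20.8 CPM. Among the markers of other cell types, PTPRC, CD3E and COL3A1 did not exceed 0.1553 CPM, and PDGFRB, VWF and DES did not exceed 0.546 CPM. In the same list CD68 was at 6.58 to 16.4 CPM, a range within that of CDX2, and COL1A1 was at 2.44 to 8.46 CPM. The sum of 8 markers of other cell types was at 48 h 12.6 to 15.01 CPM in DMSO, 21.01 to 24.8 CPM under GW3965, 17.6 to 21.1 CPM under T0901317 and 16.5 to 19.1 CPM under rosiglitazone, mostly CD68 and COL1A1. Of the 8 epithelial markers, 4 were called higher and 0 lower under GW3965 at 48 h, 2 higher and 2 lower (KRT8 and KRT18) under T0901317, and 3 higher and 2 lower under rosiglitazone. The shares called were 50%, 50% and 62.5%, against 33.6%, 30% and 25.5% of all genes. With scaling by library size alone, GW3965 gave 4 higher and 2 lower. The sum of the 8 at 48 h was 17480 to 18620 CPM in DMSO and 16470 to 17180 CPM under GW3965. It was 14640 to 16320 CPM under T0901317 and 18810 to 22390 CPM under rosiglitazone. The part of these markers in the results was not tested. Replicates of a group differed beyond counting noise in all 48 pairs, with a chi-square per degree of freedom of at least 4.19.

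**Figure D1:**
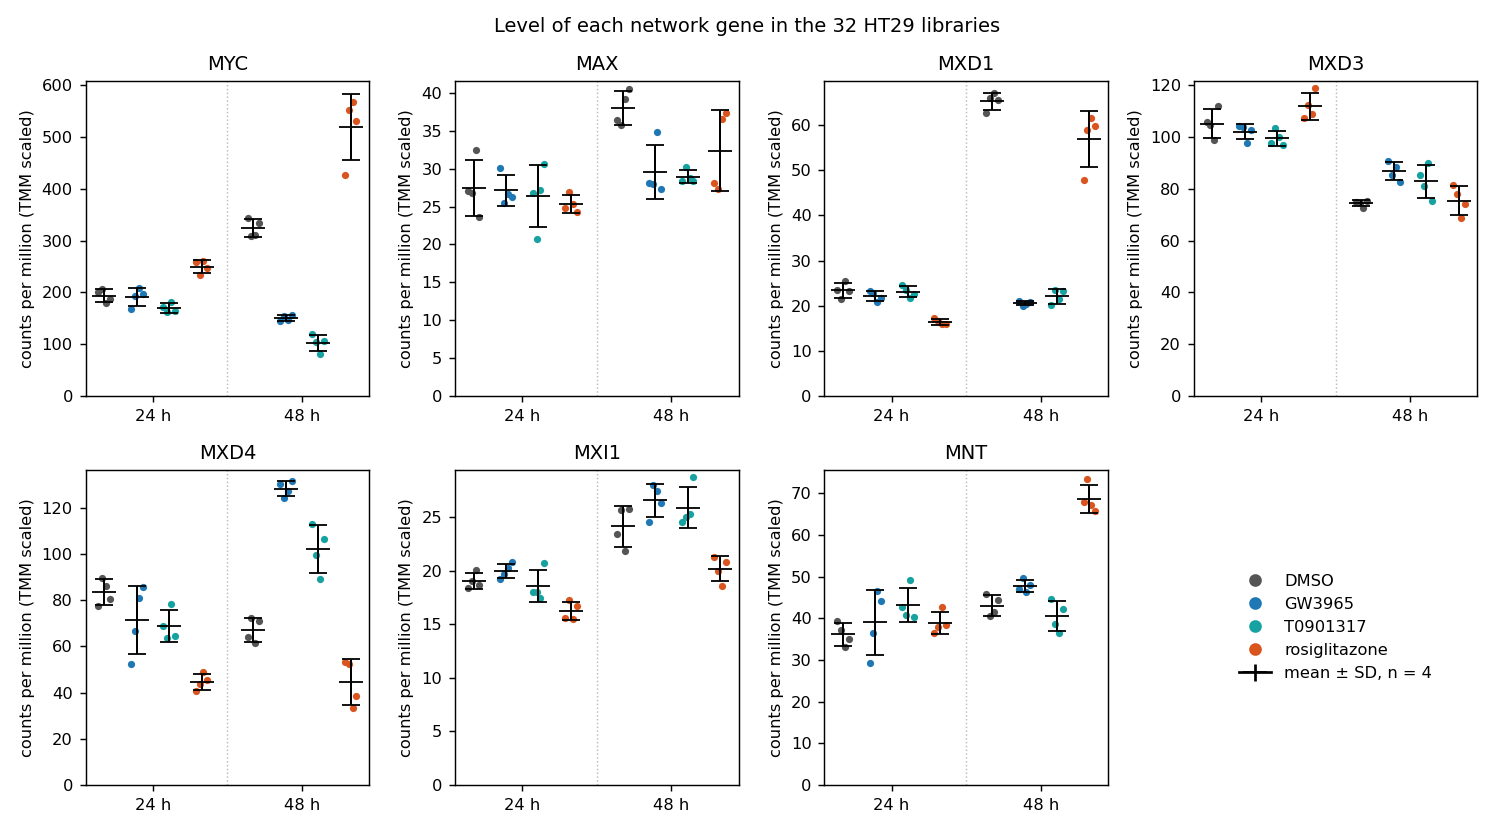
Level of each of the 7 network genes in CPM (linear axis from 0) in the 32 libraries, grouped by time and coloured by treatment, with black bars for the mean ± SD of 4 libraries. MYC, MXD1 and MXD4 moved most, and at 48 h MXD1 with either LXR agonist stayed between 20.1 and 23.4 CPM while DMSO lay between 62.6 and 67.0 CPM.

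At 24 h the LXR agonists gave few calls over all genes, so 0 calls among 7 members do not set the network apart. Of the 7 members, 0 were called with GW3965, where 2.73% of all genes were called, and 0 with T0901317, where 1.45% of all genes were called. At an unadjusted p under 0.05 there were 0 members with GW3965 and 3 with T0901317, namely MYC, MXD4 and MNT, and DESeq2 also called 0 members with either drug. Rosiglitazone at 24 h changed 3 of the 7 members, against 12.3% of all genes: MYC rose, and MXD1 and MXD4 fell. In these bulk samples fewer cells of a type and less RNA per cell cannot be told apart.

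At 48 h MYC and MXD4 were called in opposite directions with the LXR agonists and with rosiglitazone. GW3965 changed 5 of the 7 members, against 33.6% of all genes, with MYC, MAX and MXD1 lower and MXD3 and MXD4 higher. T0901317 changed 4 of the 7, against 30% of all genes, with MYC, MAX and MXD1 lower and MXD4 higher. Rosiglitazone changed 4 of the 7, against 25.5% of all genes, with MYC and MNT higher and MXD4 and MXI1 lower. With scaling by library size alone rosiglitazone gave 2 higher and 4 lower members at 48 h, MAX and MXD1 being added. Within a time point the 3 drugs were set against the same 4 DMSO libraries, and the comparisons are therefore not independent. With a fold change of at least 2 as well, 2 members remained with GW3965, MYC and MXD1, and 2 with T0901317, against 5.77% and 5.4% of all genes, and 0 with rosiglitazone, against 5.86%. The median log2 fold change of the 7 members at 48 h was 0.13 (GW3965), -0.09 (T0901317) and -0.22 (rosiglitazone), whereas the medians of all genes lay between -0.01 and 0.01.

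**Figure D2:**
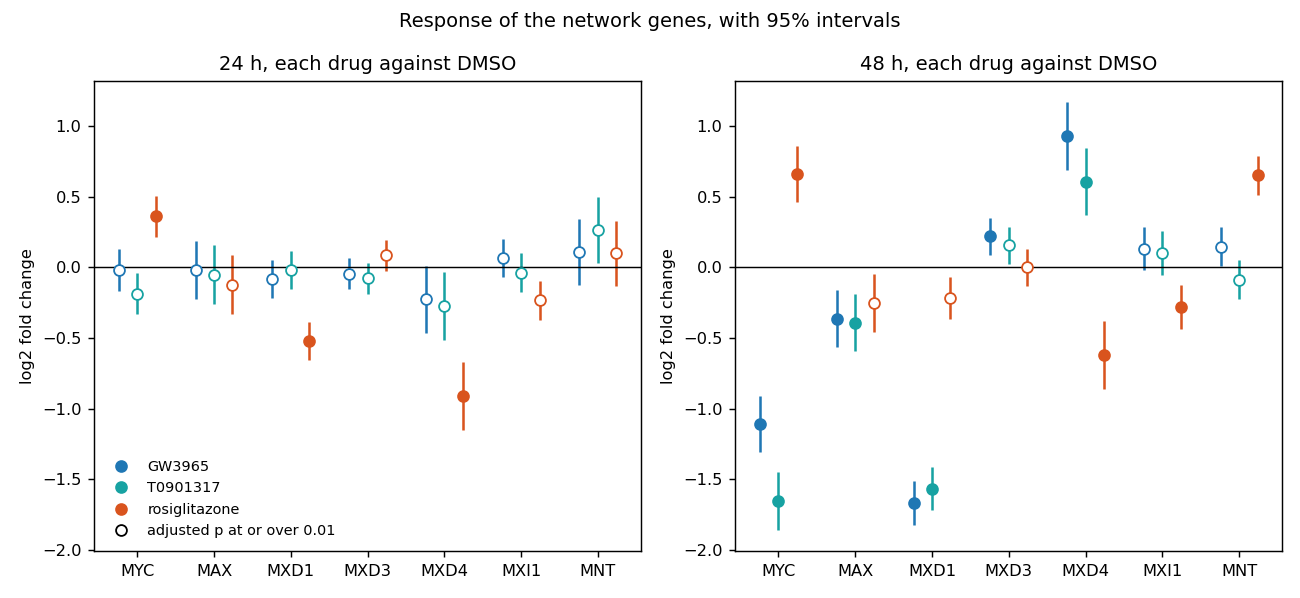
Log2 fold change of each network gene against DMSO of the same time, with 95% intervals, for GW3965, T0901317 and rosiglitazone at 24 h (left) and 48 h (right). Filled points had an adjusted p under 0.01. At 48 h MYC and MXD4 lay on opposite sides of 0 with every drug, whereas MXD1 lay below 0 with all 3.

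MYC, the activating partner of MAX, covered the widest range of the 7 genes, with a 5.03-fold ratio between its highest and lowest group mean. At 24 h its CPM was 201, 207, 179.9 and 187 in DMSO, 167, 194, 208 and 198 under GW3965, 172, 162, 182 and 164 under T0901317, and 258, 233, 261 and 247 under rosiglitazone. The rosiglitazone libraries lay above all DMSO libraries, and those of the LXR agonists overlapped them. At 48 h its CPM was 343, 309, 312 and 334 in DMSO, 144, 155, 148 and 157 under GW3965, 119.9, 105, 82.1 and 106 under T0901317, and 426, 551, 567 and 531 under rosiglitazone. The 4 groups of 48 h did not overlap at all, in the order rosiglitazone, DMSO, GW3965, T0901317. With rosiglitazone MYC rose by a log2 of 0.36 (SE 0.07, adjusted p = 0.000915) at 24 h and 0.66 (SE 0.09, adjusted p = 1.94e-05) at 48 h. With T0901317 it fell by 1.65 on the log2 scale (SE 0.10, adjusted p = 1.44e-10) at 48 h, a 3.14-fold lower level. The fall with GW3965 at 48 h was 2.16-fold, and a 24 h value of -0.19 (adjusted p = 0.235) with T0901317 was not called. In the order over all 8 groups, DMSO, GW3965 and T0901317 at 24 h were neighbours with overlapping libraries, and every other neighbouring pair was separate.

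MAX, the shared partner through which the other 6 proteins bind DNA, moved little. Its group means ran from 25.3 ± 1.13 CPM (SD, n = 4) with rosiglitazone at 24 h to 38.0 ± 2.26 CPM with DMSO at 48 h, and each group overlapped the next in order. At 48 h MAX was at 36.5, 35.7, 39.2 and 40.6 CPM with DMSO, at 28.1, 28.0, 34.9 and 27.3 CPM with GW3965, and at 28.4, 30.2, 28.7 and 28.4 CPM with T0901317. All libraries of the LXR agonists lay below those of DMSO, though GW3965 replicate 3 was close to them. The differences were -0.36 (SE 0.10, adjusted p = 0.00426) with GW3965 and -0.39 (SE 0.10, adjusted p = 0.00269) with T0901317. The GW3965 call was lost without DMSO replicate 3 or 4 or GW3965 replicate 1, 2 or 4, with adjusted p-values up to 0.0186, and the T0901317 call was lost without DMSO replicate 4, at an adjusted p of 0.0112. With rosiglitazone MAX was at 28.1, 27.4, 36.6 and 37.3 CPM at 48 h, values that overlapped DMSO, and the difference of -0.25 (adjusted p = 0.047) was not called, whereas with scaling by library size it was -0.44 (adjusted p = 0.0012). FNTB, which overlaps MAX in RefSeq and was counted at up to 913 reads, differed from DMSO by at most 0.14 in size with any drug and was not called.

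MXD1, a MAX-binding repressor known from differentiating cells, gave the largest difference of any member with GW3965. At 24 h its CPM was 23.4, 21.5, 25.5 and 23.4 in DMSO, 23.3, 22.8, 20.8 and 21.8 under GW3965, 24.6, 23.5, 21.8 and 22.7 under T0901317, and 17.3, 16.6, 15.96 and 15.9 under rosiglitazone. The rosiglitazone libraries lay below all others of 24 h, and the other 3 groups overlapped. At 48 h its CPM was 62.6, 66.0, 67.0 and 65.5 in DMSO, 21.1, 20.1, 20.3 and 20.9 under GW3965, 20.1, 23.4, 21.6 and 23.2 under T0901317, and 47.7, 58.8, 61.5 and 59.7 under rosiglitazone. The LXR agonist groups thus stood at the level of 24 h, while DMSO and rosiglitazone stood far above it. MXD1 was lower by 1.67 on the log2 scale with GW3965 (log2 fold change -1.67, SE 0.07, adjusted p = 2.10e-12) and by 1.57 with T0901317 (log2 fold change -1.57, SE 0.07, adjusted p = 6.06e-12). Rosiglitazone lowered it at 24 h by 0.52 (log2 fold change -0.52, SE 0.06, adjusted p = 7.76e-06). At 48 h rosiglitazone replicate 1 was the lowest of its group, all 4 libraries lay below DMSO, and the difference of -0.22 (adjusted p = 0.0214) was not called with TMM scaling. With scaling by library size alone it was -0.40 (adjusted p = 0.000129).

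MXD4 is a MAX-binding repressor expressed in many tissues. Relative to DMSO it moved against MYC with every drug at 48 h and with rosiglitazone at 24 h. At 24 h its CPM was 77.5, 89.7, 86.4 and 80.6 in DMSO, 52.6, 66.6, 81.1 and 85.6 under GW3965, 69.0, 63.7, 78.6 and 64.3 under T0901317, and 40.9, 43.6, 49.0 and 45.3 under rosiglitazone. GW3965 at 24 h had the widest spread, 71.5 ± 14.9 CPM (SD, n = 4), and rosiglitazone lay below all other groups of that time. At 48 h its CPM was 64.2, 72.4, 61.5 and 71.0 in DMSO, 130.4, 124, 127 and 132 under GW3965, 113, 99.6, 89.1 and 107 under T0901317, and 53.4, 52.4, 33.5 and 38.5 under rosiglitazone. The 4 groups of 48 h did not overlap, in the order GW3965, T0901317, DMSO, rosiglitazone. MXD4 rose with GW3965 by a log2 of 0.93 (SE 0.11, adjusted p = 1.75e-06) and with T0901317 by 0.60 (SE 0.11, adjusted p = 0.000243), and with rosiglitazone the log2 fold change was -0.62 (SE 0.12, adjusted p = 0.000284). The rosiglitazone response at 24 h was -0.91 (SE 0.12, adjusted p = 9.75e-06), the only MXD4 call against DMSO at that time.

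The other MXD genes gave small differences. MXD3, a repressor seen in proliferating cells, lay between 72.7 and 75.1 CPM with DMSO at 48 h, between 82.7 and 90.7 CPM with GW3965 and between 75.3 and 89.98 CPM with T0901317. It was higher than DMSO with GW3965 by a log2 of 0.22 (SE 0.06, adjusted p = 0.00718), and the T0901317 value of 0.16 (adjusted p = 0.0513) was not called. Between 24 and 48 h the MXD3 mean fell in these groups, from 105.1 to 74.4 CPM with DMSO and from 102 to 86.8 CPM with GW3965. With T0901317 it fell from 99.4 to 82.8 CPM. The GW3965 call was lost without any of the 4 DMSO libraries or GW3965 replicate 1, 2 or 3, with adjusted p-values up to 0.0278, and with scaling by library size, at 0.0504. MXD3 overlaps the more abundant PRELID1 in RefSeq, the labels and methods do not state whether reads were counted by strand, and PRELID1 itself was at 0.14 (adjusted p = 0.0618) with GW3965 at 48 h. MXI1, another SIN3-recruiting partner of MAX, lay between 18.6 and 21.3 CPM with rosiglitazone at 48 h and between 21.8 and 25.8 CPM with DMSO. Its log2 fold change was -0.28 (SE 0.08, adjusted p = 0.00627), and at 24 h, with all 4 libraries below DMSO, the value of -0.23 (adjusted p = 0.014) was not called. DESeq2 (adjusted p = 0.00964) and scaling by library size (-0.33, adjusted p = 0.00336) called it at 24 h. The 48 h call was lost without DMSO replicate 1, 2 or 4 or rosiglitazone replicate 2, 3 or 4, with adjusted p-values up to 0.0312, without the low-count filter (0.0107) and in the fit of the 2 groups alone (0.0149). With the LXR agonists at 48 h MXI1 was at 26.6 ± 1.51 CPM (GW3965) and 25.9 ± 1.94 CPM (T0901317), which overlapped DMSO.

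MNT, the constitutive MAX partner, responded to rosiglitazone at 48 h. Its CPM was then 67.9, 73.5, 67.2 and 65.8 with rosiglitazone, compared with 45.8, 40.5, 41.6 and 44.3 with DMSO, 47.1, 49.7, 46.4 and 48.1 with GW3965, and 44.6, 38.7, 36.4 and 42.4 with T0901317. The rosiglitazone libraries stood above all other 28 libraries of the series, which ran from 29.3 to 49.7 CPM. MNT rose by a log2 of 0.65 (SE 0.07, adjusted p = 2.56e-07), and with GW3965 and T0901317 at 48 h the values of 0.15 (adjusted p = 0.0774) and -0.09 (adjusted p = 0.309) were not called. At 24 h MNT lay between 36.5 and 42.7 CPM with rosiglitazone and between 33.0 and 39.3 CPM with DMSO, which overlapped, and the GW3965 group spread from 29.3 to 46.5 CPM.

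The response to the LXR agonists differed between the time points when the difference itself was tested in a fit of all 32 libraries. With GW3965 the response at 48 h minus that at 24 h was called for 4 of the 7 members, against 21.6% of all genes, and it was -1.09 for MYC (SE 0.12, adjusted p = 2.66e-08), -1.59 for MXD1 (SE 0.10, adjusted p = 3.15e-14), 1.16 for MXD4 (SE 0.17, adjusted p = 2.71e-06) and 0.26 for MXD3 (SE 0.08, adjusted p = 0.00907). With T0901317 it was called for 3 of the 7, against 17.4% of all genes, at -1.46 for MYC (adjusted p = 6.44e-11), -1.55 for MXD1 (adjusted p = 6.66e-14) and 0.88 for MXD4 (adjusted p = 0.000164). With rosiglitazone it was called for 1 of the 7, MNT, at 0.57 (SE 0.13, adjusted p = 0.0077), against 2.45% of all genes, and for MYC the difference of 0.31 had a 95% interval from 0.06 to 0.56 and an adjusted p of 0.124. The MNT call was lost without DMSO replicate 1, 2 or 4 of 24 h, DMSO replicate 2, 3 or 4 of 48 h, rosiglitazone replicate 1, 2 or 4 of 24 h, rosiglitazone replicate 2, 3 or 4 of 48 h, GW3965 replicate 2 of either time or T0901317 replicate 2 of 24 h, 15 of the 32 libraries, with values of 0.53 to 0.63 and adjusted p-values up to 0.0224 over all 32 omissions, and with RLE (0.0107) or library size scaling (0.0106). The MXD3 call with GW3965 was lost in 19 of the 32 omissions, at 24 h DMSO replicate 1, 2 or 4, any GW3965 library, T0901317 replicate 2 or rosiglitazone replicate 1, and at 48 h any DMSO library, GW3965 replicate 1, 2 or 3, T0901317 replicate 3 or rosiglitazone replicate 2 or 4, with values from 0.22 to 0.30 and adjusted p-values up to 0.0415, and also with scaling by library size (adjusted p = 0.0239) and without the low-count filter (0.0282).

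The control groups themselves differed between the times. DMSO at 48 h against DMSO at 24 h was called for 5 of the 7 members, against 38.6% of all genes. MXD1 was 2.78-fold higher at 48 h (log2 fold change 1.48, SE 0.07, adjusted p = 3.27e-18), MYC 1.67-fold higher (0.74, adjusted p = 1.17e-08), MAX higher by 0.47 (adjusted p = 0.000302) and MXI1 by 0.34 (adjusted p = 8.45e-05). MXD3 was lower (log2 fold change -0.50, adjusted p = 4.92e-09), as was the overlapping PRELID1 (log2 fold change -0.83, adjusted p = 1.85e-14). Between 24 and 48 h the mean MYC level went from 194 to 324 CPM with DMSO and from 249.8 to 519 CPM with rosiglitazone, but from 192 to 151 CPM with GW3965 and from 170.0 to 103 CPM with T0901317. The mean MXD1 level went from 23.4 to 65.3 CPM with DMSO and from 16.4 to 56.9 CPM with rosiglitazone, but from 22.2 to 20.6 CPM with GW3965 and from 23.1 to 22.1 CPM with T0901317. MXD4 went from 83.5 to 67.3 CPM with DMSO and from 71.5 to 128 CPM with GW3965. Time in culture and the preparation of the 2 sets of libraries cannot be told apart.

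The LXR agonists were compared with each other at the same dose and time, over 14 pairs of values for the 7 members with p-values adjusted over all genes of a time point. At 24 h 0 of the 7 members were called, against 0.79% of all genes, with 1 member at an unadjusted p under 0.05 and 0 called by DESeq2. The MYC difference was 0.17, with a 95% interval from 0.02 to 0.31. At 48 h 1 of the 7 was called, against 8.36% of all genes. MYC was 1.46-fold higher with GW3965 than with T0901317 (log2 0.54, SE 0.10, adjusted p = 0.000744), and MXD1 differed by -0.10 with a 95% interval from -0.26 to 0.05. MXD4 was 0.33 higher with GW3965 (95% interval 0.09 to 0.56, adjusted p = 0.0515) and MNT 0.23 higher (95% interval 0.10 to 0.37, adjusted p = 0.018), and neither was called. Leaving out T0901317 replicate 1 raised the count at 48 h to 2, DESeq2 called MNT as well (0.24, adjusted p = 0.00378), and the fit of the 2 groups alone called MXD4 (adjusted p = 0.00376).

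Set directly against GW3965, rosiglitazone gave 4 calls of 7 at 24 h, against 10.7% of all genes, and 6 of 7 at 48 h, against 45% of all genes. At 48 h MYC was 3.40-fold higher (log2 1.77, SE 0.10, adjusted p = 1.71e-11), MXD1 2.74-fold higher (1.45, adjusted p = 5.95e-12) and MNT higher by 0.50 (adjusted p = 1.74e-06) with rosiglitazone. MXD4 was 2.92-fold lower (log2 fold change -1.55, adjusted p = 1.12e-09), MXI1 lower (-0.41, adjusted p = 9.38e-05) and MXD3 lower (-0.22, adjusted p = 0.00562). The MXD3 call was lost without GW3965 replicate 1, 2 or 3 or rosiglitazone replicate 3 or 4, with adjusted p-values up to 0.0237, and in the fit of the 2 groups alone (0.0103). At 24 h MYC was higher by 0.38 and MXD1, MXD4 and MXI1 differed by -0.44, -0.68 and -0.30. The MXI1 call at 24 h was lost without GW3965 replicate 4 or rosiglitazone replicate 1 or 3, with adjusted p-values up to 0.0122.

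The RNA of the activator was set against that of a repressor by the log2 ratio of MYC to MXD4 within each library. Protein levels were not part of these data. Gene length was not removed from this ratio, so its differences between groups can be read and its absolute value cannot. Relative to DMSO of the same time, the mean ratio at 24 h differed by 0.23 (GW3965), 0.09 (T0901317) and 1.27 (rosiglitazone). At 48 h it differed by -2.04 (GW3965), -2.27 (T0901317) and 1.29 (rosiglitazone). Of the repressors, MXD4 gave the largest difference in size with each drug at 48 h. In the same order of drugs, the ratio of MYC differed by -1.33, -1.82 and 0.65 against MXD3. Against MXI1 it differed by -1.24, -1.765 and 0.93. Against MNT the ratio of MYC differed by -1.26, -1.57 and -0.0019 (GW3965, T0901317 and rosiglitazone at 48 h), and against MXD1 by 0.56, -0.10 and 0.87. The ratio to MXD1 thus did not follow that to MXD4 with the LXR agonists, since MYC and MXD1 were both lower.

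**Figure D3:**
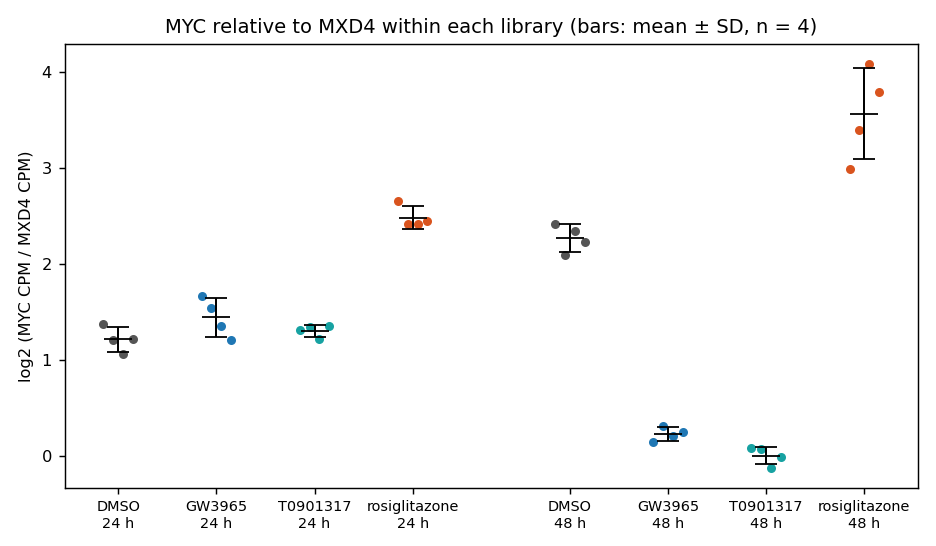
Log2 ratio of MYC CPM to MXD4 CPM in each of the 32 libraries by treatment and time, with bars for the mean ± SD of 4 libraries. Groups may be compared with each other, and at 48 h the GW3965 and T0901317 libraries lay far below DMSO and the rosiglitazone libraries above it.

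Among genes that MYC is known to activate, mostly of ribosome assembly and nucleotide synthesis, 41 of 42 listed genes were tested. At 48 h GW3965 lowered 19 and raised 6 of them (median log2 fold change -0.19), and T0901317 lowered 26 and raised 2 (median -0.35). Rosiglitazone raised 28 at 48 h (median 0.35) and 21 at 24 h (median 0.23) and lowered 0 at either time. With each LXR agonist at 24 h a single gene rose, SHMT2 of the mitochondrial folate pathway, named after its values were seen, and 0 fell. The shares called with GW3965, T0901317 and rosiglitazone were 61%, 68.3% and 68.3% at 48 h, beside the shares of all genes given above. At 24 h they were 2.44%, 2.44% and 51.2%, against 2.73%, 1.45% and 12.3% of all genes. With scaling by library size alone, which moved the median of all genes with rosiglitazone to -0.11 at 24 h and -0.19 at 48 h, rosiglitazone raised 6 genes at 24 h and 14 at 48 h and still lowered 0. RRP12, a ribosome export factor, was at 173 ± 10.98 CPM at 48 h in DMSO, 96.9 ± 3.94 under GW3965, 71.1 ± 4.995 under T0901317 and 341 ± 48.1 under rosiglitazone (SD, n = 4). DDX21, a nucleolar RNA helicase, fell with GW3965 (log2 fold change -0.92, adjusted p = 2.42e-08), and HK2, a hexokinase, fell with T0901317 (-1.16, adjusted p = 1.57e-09). SLC19A1, the reduced folate carrier, was higher than DMSO with all 3 drugs at 48 h, by 0.86 (GW3965), 0.46 (T0901317) and 1.06 (rosiglitazone). Between 24 and 48 h its mean fell from 133 to 62.9 CPM with DMSO and from 143 to 115 CPM with GW3965. It also fell from 128 to 86.3 CPM with T0901317 and from 244 to 133 CPM with rosiglitazone. Between the DMSO groups 22 of the list fell and 7 rose from 24 to 48 h (70.7%, against 38.6% of all genes), while MYC rose.

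**Figure D4:**
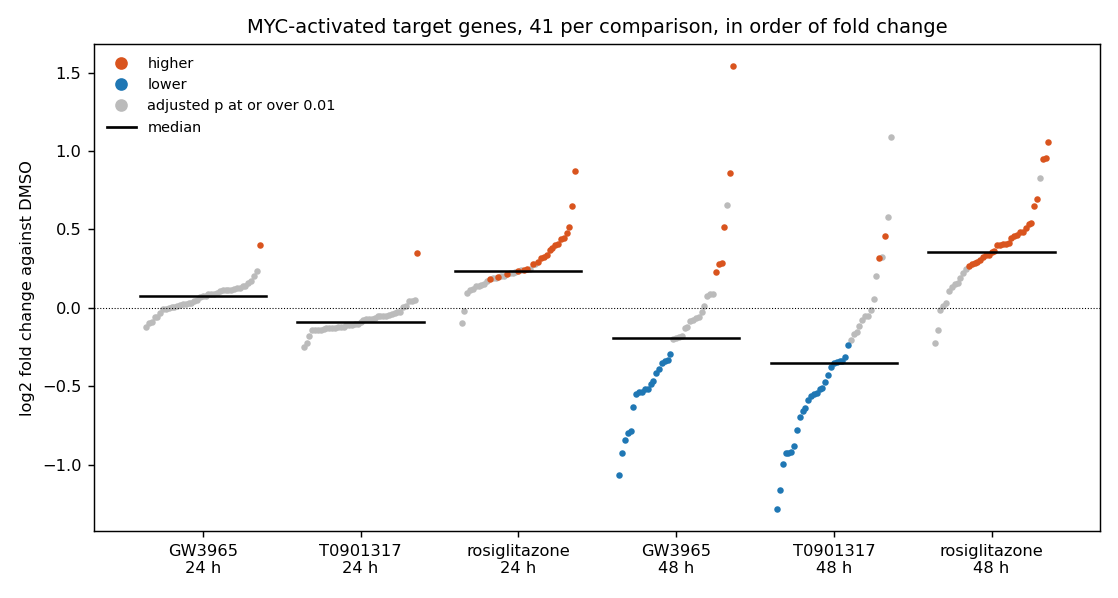
Log2 fold change against DMSO of the same time for 41 genes that MYC is known to activate, sorted within each comparison, with a black line at the median. Points are coloured where the adjusted p was under 0.01, and at 48 h the LXR agonists gave 19 and 26 lower genes and rosiglitazone gave 28 higher genes.

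Against DMSO of the same time, 4 of 7 tested genes known to be repressed by MYC fell and 1 rose with GW3965 at 48 h. With T0901317 4 fell and 1 rose, and with rosiglitazone 1 fell and 3 rose. The shares called were 71.4%, 71.4% and 57.1%, against 33.6%, 30% and 25.5% of all genes. At 24 h 2 rose and 1 fell with GW3965 (42.9%, against 2.73% of all genes). With T0901317 1 rose and 1 fell (28.6%, against 1.45%), and with rosiglitazone 1 rose and 2 fell (42.9%, against 12.3%). CDKN2B, an inhibitor of CDK4 and CDK6, was at 37.4 ± 2.60 CPM at 48 h in DMSO, 8.98 ± 0.80 under GW3965, 8.59 ± 1.101 under T0901317 and 39.2 ± 8.68 under rosiglitazone. It stood at 6.90 ± 0.86 CPM with DMSO at 24 h, so that, as for MXD1, the 2 LXR agonist groups of 48 h were near the level of 24 h. GADD45A, a growth arrest gene, fell with both LXR agonists (log2 fold changes -1.99 and -1.89, adjusted p = 7.94e-12 and 1.57e-11), and NDRG1 rose with GW3965 (1.30, adjusted p = 5.29e-05).

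The machinery around the network was read from lists of cofactors, corepressors and turnover genes. Of 17 MYC cofactors, GW3965 at 48 h raised 2 and lowered 7, T0901317 raised 1 and lowered 12, and rosiglitazone raised 9 and lowered 0, the last becoming 3 and 1 with scaling by library size. The shares called with TMM scaling were 52.9%, 76.5% and 52.9%, against 33.6%, 30% and 25.5% of all genes. The acetyltransferase CREBBP fell with T0901317 (log2 fold change -1.09, adjusted p = 2.82e-10). PIM1, a kinase that cooperates with MYC, rose with all 3 drugs at 48 h, most with rosiglitazone, from 5.08 ± 0.40 CPM with DMSO to 27.1 ± 4.63 CPM (log2 2.40, adjusted p = 2.42e-12). Of 14 SIN3 and HDAC complex genes, through which the MXD proteins repress, GW3965 raised 3 and lowered 4 at 48 h, T0901317 raised 4 and lowered 2, and rosiglitazone raised 1 and lowered 1, where scaling by library size gave 1 and 8. In this list 50%, 42.9% and 14.3% were called with TMM scaling, the last below the share of all genes. Of 14 tested genes of MYC protein turnover, GW3965 raised 2 and lowered 8, T0901317 raised 2 and lowered 6, and rosiglitazone raised 4 and lowered 2. Here 71.4%, 57.1% and 42.9% were called. The list was not divided by how its genes act on MYC, so these counts give no direction of turnover. SKP2, the substrate receptor of a ubiquitin ligase, was higher than DMSO at 48 h with GW3965 (1.26, adjusted p = 1.42e-05). With T0901317 it was higher too (1.52, adjusted p = 1.80e-06), and with rosiglitazone lower (log2 fold change -0.97, adjusted p = 0.000683). Its mean with DMSO went from 59.1 CPM at 24 h to 15.9 CPM at 48 h. It went from 47.7 to 38.2 CPM with GW3965 and from 51.7 to 45.6 CPM with T0901317. At 24 h SKP2 was called lower with GW3965 (log2 fold change -0.31, adjusted p = 0.000311).

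The neighbouring branch of the network, in which MLXIP (MondoA) and MLXIPL (ChREBP) pair with MLX and respond to glucose, was read from its own genes and from its targets. Of 5 other network genes tested, 1 was higher with GW3965 at 48 h, 2 were lower with T0901317 and 0 were called with rosiglitazone, where scaling by library size gave 2 lower. The shares called with TMM scaling were 20%, 40% and 0%, against 33.6%, 30% and 25.5% of all genes. MLXIPL rose with GW3965 from 6.01 ± 0.76 to 9.59 ± 1.53 CPM (log2 0.67, adjusted p = 0.00127), and MLX fell with T0901317 (log2 fold change -0.28, adjusted p = 0.000305). TXNIP, a MondoA target that binds thioredoxin and limits glucose uptake, was at 602 ± 24.5 CPM at 48 h in DMSO, 108 ± 19.4 under GW3965, 83.8 ± 8.77 under T0901317 and 568 ± 42.6 under rosiglitazone (SD, n = 4). At 24 h TXNIP was at 88.2 ± 7.14 CPM with DMSO, so it too was higher in the later control. TXNIP was lower than DMSO at 48 h with GW3965 (log2 fold change -2.48, adjusted p = 9.46e-13) and T0901317 (-2.84, adjusted p = 1.69e-13), and its relative ARRDC4 had values of -3.05 and -3.81. The third target tested, PKLR, a pyruvate kinase gene of the liver known as a ChREBP target, rose under GW3965 (1.04, adjusted p = 0.000398) and T0901317 (1.34, adjusted p = 2.71e-05) and fell under rosiglitazone (log2 fold change -1.09, adjusted p = 0.00263).

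The genes with the most similar profile over the 8 group means were sought for the 3 members that spanned more than 1 on the log2 scale, among 15144 genes, by the root mean square difference of centred log2 CPM. For MYC they were RRP12 (0.12), AC093734.1 (0.14) and MAFK (0.14). For MXD1 they were AL137003.1 (0.13), MCL1 (0.15) and ZBTB10 (0.15), and for MXD4 PYROXD2 (0.11), PPM1K (0.11) and MOSPD3 (0.12). The 8 means rest on the same 32 libraries, and no test was made.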

How the data were processed

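The 7 members and the gene lists were chosen with earlier results of these data known. Polyadenylated RNA was fragmented as cDNA with Nextera transposases and sequenced paired-end. The deposited values were whole-number counts per gene, and the submitters' processing notes name TopHat, Cufflinks and hg19, with roles, versions, counting program and strand setting not given in the sources used here. Peak files were not used here.

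Counts were fitted at each time point (16 libraries, group as the factor, no replicate block) with edgeR 4.0.16 in R 4.3.3: filterByExpr, TMM scaling, quasi-likelihood test, Benjamini-Hochberg adjustment over 21781 genes at 24 h and 22470 at 48 h, call at an adjusted p under 0.01. Differences between times came from 1 fit of 32 libraries (23140 genes). Levels were computed as CPM from the deposited counts with TMM factors over 32 libraries. Intervals are 95%. Total counts of 21044798 to 51332656 gave a counting error of at most 5.11% for any member in any library. The study's cutoffs of 2- and 1.5-fold, DESeq2 1.42.0, RLE and library size scaling, no filter, other sets of libraries, the replicate block and leaving out each library were tried as alternatives. In simulated counts for GW3965 at 48 h, 100% of 200 genes changed by a log2 of 1 and 55.5% of those changed by 0.5 were recovered. Only these 200 genes were changed there, whereas 33.6% of all genes were called in the data. The adjusted thresholds therefore differ, and these shares do not give the power in the data. Genes named beside the members came from the lists (at most 2 per direction, list and comparison at 48 h), with MLXIPL, TXNIP and the 3 most similar profiles of members spanning over 1 on the log2 scale. SHMT2 was named after its values were seen, and PRELID1 and FNTB because they overlap members.

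Same-numbered replicates did not pair: 10 of 48 same-numbered pairs of libraries had a correlation of their deviations over 0.1.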

Additional observations from a re-analysis of the deposited data

Results flagged for a closer look

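Among 56 sets of 4 libraries (7 members in 8 groups), 2 held a library far from the others, where chance alone flags about 1 set in 20. MAX was at 34.9 CPM in GW3965 replicate 3 at 48 h, and the other 3 libraries lay between 27.3 and 28.1 CPM. MXI1 was at 20.8 CPM in T0901317 replicate 4 at 24 h, and the other 3 lay between 17.5 and 18.02 CPM.

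The response to a drug differed between 24 and 48 h in 8 tests of the difference itself. With GW3965 the response at 48 h minus that at 24 h was -1.09 for MYC, -1.59 for MXD1, 0.26 for MXD3 and 1.16 for MXD4 on the log2 scale. With T0901317 it was -1.46 for MYC, -1.55 for MXD1 and 0.88 for MXD4. With rosiglitazone it was 0.57 for MNT. The time points have separate DMSO groups, and these groups differed for 5 of the 7 members.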

How the results depend on the processing

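A fold change of at least 1.5 reduced the members called to 1 (rosiglitazone 24 h), 1 (rosiglitazone against GW3965, 24 h), 3 (GW3965 48 h), 0 (GW3965 against T0901317, 48 h) and 3 (rosiglitazone against GW3965, 48 h), and a fold change of at least 2 to 0, 0, 2, 0 and 3, with 2 for T0901317 and 0 for rosiglitazone at 48 h, since fewer genes meet a fold cutoff. An adjusted p under 0.05 gave 2 for GW3965 against T0901317 at 48 h and 2 for the rosiglitazone difference between times. DESeq2, and the fit of the 2 groups alone, each gave 2 for GW3965 against T0901317 at 48 h. Scaling by library size or RLE gave 0 for the rosiglitazone difference between times. Leaving out 1 library at a time gave 3 to 5 members for GW3965 at 48 h (3 without DMSO replicate 3 or 4 or GW3965 replicate 1 or 2, where MAX and MXD3 were lost), 1 to 2 for GW3965 against T0901317 at 48 h and 0 to 2 for the rosiglitazone difference between times (2 without rosiglitazone replicate 1 of 48 h).

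Changes of sign were seen in values that were not called in either fit. With library size scaling they were MXD3 with rosiglitazone at 24 h (-0.0088) and 48 h (-0.18), MAX, MXD3 and MXI1 between GW3965 and T0901317 at 48 h (-0.0539, -0.02 and -0.0502) and MAX between rosiglitazone and GW3965 at 48 h (-0.0268), and in the fit of the 2 groups alone MXD3 with rosiglitazone at 48 h (-0.0055). On leaving out 1 library, signs changed within these ranges: at 24 h MYC with GW3965 -0.0609 to 0.0443, MAX with GW3965 -0.0856 to 0.0703 and with T0901317 -0.1314 to 0.0376, MXD1 with T0901317 -0.0562 to 0.0239, MAX and MXD4 between GW3965 and T0901317 -0.0578 to 0.1122 and -0.0521 to 0.1725, and MNT between rosiglitazone and GW3965 -0.1237 to 0.0838. At 48 h they were MXD3 with rosiglitazone -0.0359 to 0.0436 and MAX between GW3965 and T0901317 -0.0615 to 0.0663, and for the differences between times MNT with GW3965 -0.0741 to 0.1328 and MXI1 with rosiglitazone -0.1012 to 0.0126. The cause of these changes was not tested.

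With the replicate number as a block, 3, 5, 4 and 4 members were called for rosiglitazone at 24 h and for GW3965, T0901317 and rosiglitazone at 48 h, and 4 instead of 5 for DMSO between times (MAX, 0.35, adjusted p = 0.0357); MXD3 with rosiglitazone at 48 h was -0.0012. The numbers are no pairing, since 9 of 32 libraries correlated best with their own number. Among 2016 values of single members on leaving out 1 library, 1924 kept their sign and side of the threshold. The planned search for peaks near the members and levels per length were not run, since no annotation of the peaks' build and no lengths were at hand, and the sum of all rows of a symbol equals the single row. With 4 libraries a group, 3% of simulated log2 changes of 0.5 between times were recovered with GW3965. The simulation changed only 200 of 22792 genes, whereas 21.6% of all genes were called in the data. The adjusted threshold was therefore stricter in the simulation, and the 3% does not give the power in the data. Small differences between times may still go undetected. List counts under other scalings were chosen after seeing the data.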
